A study of Mus musculus with 12 samples.

Results

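Insulin signaling and glucose uptake in inguinal white adipose tissue (iWAT) were examined through 10 genes, chosen by name out of the 54134 genes of the count table: Insr, Irs1, Irs2, Pik3r1, Akt2, Foxo1, Foxo3, Slc2a4, Slc2a1 and Pde3b. All 10 had exactly the name sought, and all 10 passed the filter on low counts that left 15585 genes for testing. Insulin binds its receptor on the adipocyte, the receptor phosphorylates IRS adaptor proteins, and these recruit the phosphoinositide 3-kinase (PI3K) whose product activates AKT2. AKT2 sends the glucose transporter GLUT4 to the cell surface, keeps FOXO transcription factors out of the nucleus, and acts on the phosphodiesterase PDE3B, which degrades cyclic AMP and so restrains lipolysis. Much of this control is exerted on proteins, and RNA-seq measures only the mRNA of each component.

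RNA-seq was performed on iWAT of 12 male C57BL/6J mice, 6 infected with AAV-GFP and 6 with AAV-Notum, with a separate library from every mouse. Both groups received an adeno-associated virus of serotype 8 at 8 weeks of age, were fed chow for 4 weeks, and were fasted for 4 h before collection at 12 weeks of age. The transgene, green fluorescent protein or mouse Notum (a secreted enzyme that inactivates Wnt proteins), was driven by the liver-specific TBG promoter, so that the fat itself was not the intended site of expression, and no uninfected mice were analysed here. The mice are named here by the numbers of their labels, S_2011 to S_2014, S_2021 and S_2022 for AAV-GFP and S_2031 to S_2034, S_2041 and S_2042 for AAV-Notum.

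Libraries held 15266635 to 21618860 reads in AAV-GFP mice and 14711113 to 17838229 reads in AAV-Notum mice. All 10 adipocyte markers examined, among them Adipoq, were detected in every mouse, and their summed level ran from 36328 to 61951 CPM (counts scaled to library size) in AAV-GFP mice and from 32759 to 75997 CPM in AAV-Notum mice. Notum itself was at most 0.995 CPM in AAV-GFP mice and in 4 AAV-Notum mice, and reached 29.3 CPM in mouse S_2032 and 26.6 CPM in mouse S_2041. These were also the AAV-Notum mice with the highest hepatocyte marker scores (mean log2 CPM of 9 markers), 3.53 in mouse S_2032 and higher still in mouse S_2041, against at most 1.33 in the other 4, and the part of liver RNA in their Notum level was not tested. Several libraries stood apart in markers of other cell types. The summed level of 15 lymphoid markers was 20.3 CPM in AAV-GFP mouse S_2011, 11.1 CPM in mouse S_2014 and 346 CPM in mouse S_2012, against 1332 to 1941 CPM in the other 3 AAV-GFP mice and 612 to 2643 CPM in AAV-Notum mice. None of the 15 lymphoid markers was at 0 in every mouse. The sum of 9 hepatocyte markers was 5660.1 CPM in AAV-GFP mouse S_2013 and 1782 CPM in mouse S_2014, against 302 to 519 CPM in the other 4 AAV-GFP mice and 176 to 950.2 CPM in AAV-Notum mice, and 2 of the 9 were lower in AAV-Notum mice at an unadjusted p under 0.05. So were 2 of 6 macrophage markers (Cd163 and Mrc1), 1 of 7 endothelial and 1 of 7 adipose progenitor markers tested, and 1 of 6 brown or beige adipocyte markers was higher. Of all genes tested, 9.54% were lower and 4.64% higher at an unadjusted p under 0.05 in edgeR. Cd163 spanned 46.9 to 81.9 CPM in AAV-GFP mice and 27.2 to 46.1 CPM in AAV-Notum mice, without overlap. Of all genes tested, 0.693% separated in this way with every AAV-Notum mouse lower. The summed macrophage markers spanned 218 to 406 CPM and 241 to 400.4 CPM, respectively, and the part of macrophages in the values below was not tested. The sum of 9 skeletal muscle markers was 3914 CPM in AAV-Notum mouse S_2042 and at most 864 CPM in any other mouse. RNA integrity numbers ranged over 5.7 to 7.6 (AAV-GFP) and 6.9 to 7.4 (AAV-Notum), and the RNA of mouse S_2012 was isolated 22 days after collection instead of 2.

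Promoter sequences of the IRS adaptor genes are shown because Irs2 had the largest difference between groups of the 10 genes while Irs1 did not follow it. The windows are the 250 bases before the RefSeq transcription start on the minus strand of GRCm38.p6, at chr1:82291440-82291689 for Irs1 and chr8:11008930-11009179 for Irs2, written 5′ to 3′. Capitals mark the E-box CACGTG, bound by basic helix-loop-helix factors, and the insulin response sequence TGTTTTG.

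Irs1: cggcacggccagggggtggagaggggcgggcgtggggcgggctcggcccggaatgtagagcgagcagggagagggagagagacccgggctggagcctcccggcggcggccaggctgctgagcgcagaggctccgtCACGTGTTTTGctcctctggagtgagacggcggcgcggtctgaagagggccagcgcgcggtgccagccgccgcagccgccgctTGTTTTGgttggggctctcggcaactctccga

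Irs2: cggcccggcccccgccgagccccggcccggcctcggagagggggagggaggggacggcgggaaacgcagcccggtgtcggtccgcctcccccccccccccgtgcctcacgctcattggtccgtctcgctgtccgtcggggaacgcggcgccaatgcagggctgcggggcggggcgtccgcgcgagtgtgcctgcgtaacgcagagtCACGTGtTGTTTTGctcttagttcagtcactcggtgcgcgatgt

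Distances here are from the RefSeq start. The first base of the gene in GENCODE vM21 is 82291416 for Irs1 and 11008458 for Irs2, so distances from it would be longer, more so for Irs2. In Irs2 the E-box lay 44 to 39 bases before the start and the insulin response sequence followed at 37 to 31 bases. In Irs1 the E-box lay 115 to 110 bases before the start, overlapped an insulin response sequence at 111 to 105 bases, and a further copy of it lay at 32 to 26 bases. The search covered both strands of the 250 bases before the start in 32851 promoter windows. The E-box was found in 6.02%, the insulin response sequence in 5.56% and both in 0.295%. A window was at hand for 7 of the 10 genes, those other than Insr, Slc2a4 and Pde3b. Of these 7, Irs1 and Irs2 held both motifs and the other 5 held neither. The GC box GGGCGG was found in all 7 and in 32.7% of all windows. The CCAAT box was found in Irs2, Pik3r1 and Foxo1 and in 33.8% of all windows. The FOXO consensus TGTTTAC (3.17% of all windows), the cyclic AMP response element TGACGTCA (1.55%) and the glucocorticoid receptor half-site AGAACA (16.1%) were found in none of the 7. These are matches of letters only, and binding was not measured.

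The question asked of the 10 genes was whether their mRNA level differed between AAV-Notum and AAV-GFP mice. Irs2 was lower in AAV-Notum mice by 45.7%, Insr by 27.9% and Pde3b by 24.4%, while Foxo1 was lower by 2.91%, Slc2a1 higher by 4.01% and Slc2a4 higher by 6.70%. None of the 10 genes passed the adjusted threshold of 0.05 in edgeR's quasi-likelihood test, a threshold that 0.0513% of all genes passed, and 1 of them, Irs2, passed it in DESeq2, as did 2.85% of the 15806 genes with an adjusted p there. At an unadjusted p under 0.05, 2 of the 10 (Insr and Irs2) were lower in AAV-Notum mice against 9.54% of all genes, and 0 were higher against 4.64%. The count of 2 became 1 without mouse S_2012 or without S_2011 and S_2014 together, and 4 without mouse S_2042. The log2 fold change was below 0 for 8 of the 10 genes and for 48.8% of all genes, and its median was -0.21 over the 10 genes and 0.0077 over all genes tested. For none of the 10 genes did the groups separate fully, which 0.693% of all genes did with every AAV-Notum mouse lower and 0.398% with every AAV-Notum mouse higher. In bulk tissue, fewer cells of a type and less mRNA per cell cannot be told apart.

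**Figure D1:**
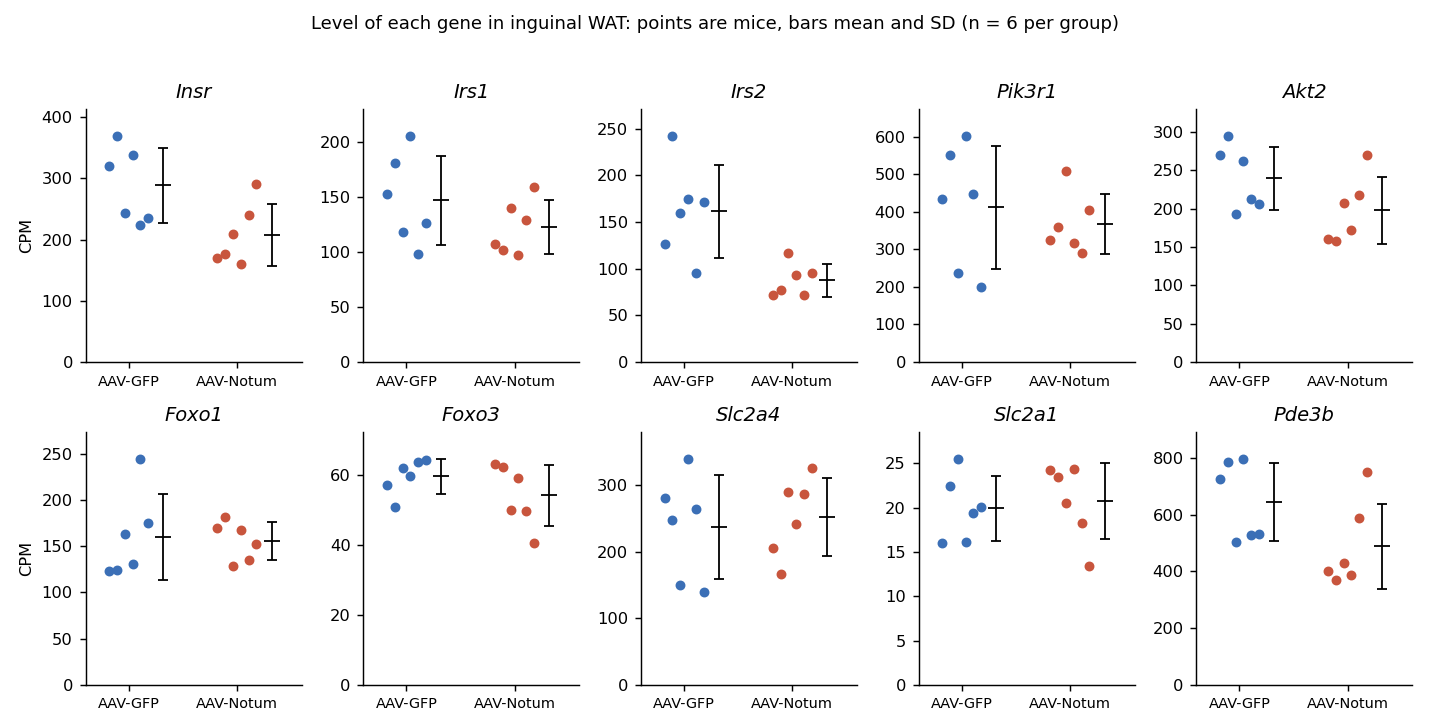
CPM of each gene (y axis, from 0) in 6 AAV-GFP and 6 AAV-Notum mice, where points are mice and bars the mean and SD. For Irs2, 5 of 6 AAV-GFP mice lie above every AAV-Notum mouse, whereas for Pik3r1, Foxo1 and Slc2a4 every AAV-Notum mouse lies within the AAV-GFP range.

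Insr (ENSMUSG00000005534, chromosome 8, 3122061 to 3279617 of GRCm38) encodes the insulin receptor. Its level was lowest at 224, median 282 and highest at 369 CPM in AAV-GFP mice, and lowest at 159.6, median 193 and highest at 291 CPM in AAV-Notum mice. The groups overlapped, but 4 AAV-Notum mice lay under the lowest AAV-GFP mouse and 5 lay under the mean of the AAV-GFP group of 288 ± 61.5 CPM (SD, n = 6). The log2 fold change was -0.47 (standard error 0.18, 95% interval -0.86 to -0.09), with an unadjusted p of 0.0201, an adjusted p of 0.270 over all genes in edgeR and 0.145 in DESeq2, and a two-sided exact permutation p of 0.0281. The AAV-GFP mice themselves differed: S_2011, S_2012 and S_2014, the 3 with the lowest lymphoid sums and also the 3 highest adipocyte scores of the group (11.28 to 11.55 against 10.44 to 11.1), had 320.5, 369 and 337 CPM of Insr, and the other 3 had 224 to 243 CPM, inside the AAV-Notum range. With a marker score (the mean log2 CPM of a list) as a covariate the log2 fold change of Insr was -0.22 for the lymphoid score (edgeR, unadjusted p = 0.178), -0.38 for the adipocyte score (unadjusted p = 0.00410), -0.44 for the skeletal muscle score (unadjusted p = 0.0018) and -0.50 for the hepatocyte score (unadjusted p = 0.0281), and without mice S_2011 and S_2014 it was -0.37 (unadjusted p = 0.0891). Without mouse S_2012 it was -0.39 (unadjusted p = 0.0517).

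The adaptors IRS1 and IRS2 carry the signal from the receptor to PI3K. Irs2 (ENSMUSG00000038894, chromosome 8, 10984681 to 11008458) had its lowest value at 95, its median at 166 and its highest at 242 CPM in AAV-GFP mice, and its lowest at 71.7, its median at 84.9 and its highest at 117 CPM in AAV-Notum mice. Each of the 6 latter was under the mean of the AAV-GFP group of 162 ± 49.8 CPM (SD, n = 6), 4 of them were under the lowest AAV-GFP mouse, and only mouse S_2021 of the AAV-GFP group, at 95 CPM, lay inside the AAV-Notum range. The log2 fold change was -0.88 (standard error 0.20, 95% interval -1.32 to -0.44), a fold of 0.543 (95% interval 0.399 to 0.738), with an unadjusted p of 9.49e-04 and an adjusted p of 0.130 in edgeR. The adjusted p in DESeq2 was 0.00650, and the two-sided exact permutation p was 0.00649, where 0.00216 is the smallest that 6 mice against 6 allow. The difference in Irs2 was taken again with each of 4 marker scores as a covariate. It was -0.83 (edgeR, unadjusted p = 0.00343) with the lymphoid score as a covariate, -0.86 with the adipocyte score (unadjusted p = 0.00130, adjusted p = 0.0441), -0.85 with the skeletal muscle score (unadjusted p = 8.47e-04), -0.88 with the hepatocyte score (unadjusted p = 0.00379) and -0.93 (unadjusted p = 0.00190) without mice S_2011 and S_2014. An antisense gene, 9530052E02Rik, shares 2.56% of the exon bases of Irs2 and had 382 reads in all against 25768 for Irs2. Whether counting used strand is not given in the sources used here.

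Irs1 (ENSMUSG00000055980, chromosome 1, 82233101 to 82291416) ran from 98.3 over a median of 139.7 to 206 CPM in AAV-GFP mice and from 97.2 over a median of 118 to 159 CPM in AAV-Notum mice. The 2 highest AAV-GFP mice (181 and 206 CPM) lay above every AAV-Notum mouse, and the other 4 lay within the AAV-Notum range. The log2 fold change of -0.26 (standard error 0.19, 95% interval -0.67 to 0.14) had an adjusted p of 0.485 in edgeR and an exact permutation p of 0.262. It was -0.14 without mouse S_2014 and -0.095 without mice S_2011 and S_2014, -0.16 with the adipocyte score as a covariate, and turned to 0.050 with the lymphoid score. The antisense gene Gm9747 shares 30.9% of the exon bases of Irs1, with 70 reads in all against 27880.

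A ratio within each mouse compares the adaptors free of the scaling to library size. The ratio of Irs1 to Irs2 was 0.736, 0.737, 0.749, 1.03, 1.18 and 1.21 in AAV-GFP mice and 1.05, 1.20, 1.33, 1.49, 1.66 and 1.80 in AAV-Notum mice. Each of the 6 latter was over the mean of the AAV-GFP group and 4 were over the highest AAV-GFP mouse, with the median moving from 0.880 to 1.41. The difference was 0.61 on the log2 scale (two-sided exact permutation test, p = 0.0130, adjusted p = 0.0390 over the 3 ratios computed). Leaving out each mouse in turn gave differences of 0.53 to 0.69, and an exact permutation p of 0.00866 to 0.0281. The AAV-Notum iWAT thus held more Irs1 relative to Irs2 mRNA than the AAV-GFP iWAT. The ratio of Slc2a4 to Slc2a1 spanned 5.85 to 21.0 in AAV-GFP mice and 7.11 to 24.0 in AAV-Notum mice (difference 0.085 on the log2 scale, exact permutation p = 0.829). The ratio of Foxo1 to Foxo3 spanned 2.14 to 3.83 and 2.56 to 3.72, respectively (difference 0.14, exact permutation p = 0.361).

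**Figure D2:**
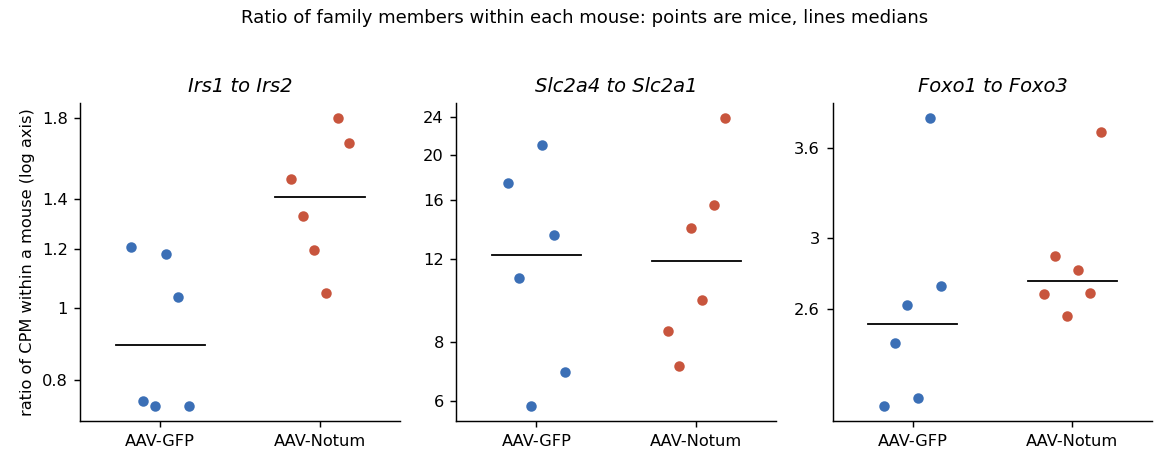
Ratio of the CPM of family members within each mouse (y axis, log scale), with 1 point per mouse and lines at the group medians. The median ratio of Irs1 to Irs2 is 0.880 in AAV-GFP and 1.41 in AAV-Notum mice, and the groups overlap in each of the 3 ratios.

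Pik3r1 (ENSMUSG00000041417, chromosome 13, 101680563 to 101768217), the regulatory subunit of PI3K that binds phosphorylated IRS proteins, was the most variable of the 10 genes among AAV-GFP mice, with a coefficient of variation of 39.6%. It ran from 199 over a median of 441 to 602 CPM in AAV-GFP mice and from 291 over a median of 342 to 509 CPM in AAV-Notum mice. No AAV-Notum mouse lay outside the AAV-GFP range, and the log2 fold change was -0.16 (standard error 0.26, 95% interval -0.74 to 0.41, edgeR adjusted p = 0.737). Without single mice it ran from -0.31 (without S_2022) to -0.026 (without S_2014), and it turned to 0.25 with the lymphoid score, 0.082 with the adipocyte score and 0.033 without mice S_2011 and S_2014. Akt2 (ENSMUSG00000004056, chromosome 7, 27591552 to 27640826), the AKT isoform tied most closely to insulin action in fat, ran from 193 over a median of 237 to 295 CPM and from 158 over a median of 189.6 to 270.3 CPM, respectively. Its groups overlapped, with 3 AAV-Notum mice under the lowest AAV-GFP mouse, and its log2 fold change was -0.28 (standard error 0.15, 95% interval -0.61 to 0.06, edgeR adjusted p = 0.412, exact permutation p = 0.117).

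The FOXO factors are switched off by AKT and switch on genes of fasting. Foxo1 (ENSMUSG00000044167, chromosome 3, 52268336 to 52353221) ran from 123 over a median of 147 to 245 CPM in AAV-GFP mice and from 129 over a median of 159 to 181 CPM in AAV-Notum mice, with 3 AAV-Notum mice on each side of the AAV-GFP mean. Its log2 fold change of -0.04 (standard error 0.17, 95% interval -0.41 to 0.33) had an adjusted p of 0.904 in edgeR. It was -0.26 with the lymphoid score as a covariate (edgeR, unadjusted p = 0.0959), -0.27 with the lymphoid and adipocyte scores (unadjusted p = 0.102) and -0.19 without mice S_2011 and S_2014 (unadjusted p = 0.299). Without mouse S_2021, the highest of all 12 mice, it turned to 0.12 (unadjusted p = 0.367), and without mouse S_2033 to 0.0064. Foxo3 (ENSMUSG00000048756, chromosome 10, 42181841 to 42276755) was the least variable of the 10 genes in AAV-GFP mice (coefficient of variation 8.38%), from 51.0 over a median of 61.1 to 64.4 CPM. In AAV-Notum mice it ran from 40.8 over a median of 54.7 to 63.2 CPM, 3 of them under the lowest AAV-GFP mouse, and its log2 fold change was -0.14 (standard error 0.11, 95% interval -0.38 to 0.10, edgeR adjusted p = 0.513). It was -0.069 without mouse S_2042, -0.22 with the lymphoid score (edgeR, unadjusted p = 0.0867) and -0.21 with the adipocyte score (unadjusted p = 0.0217).

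Glucose enters adipocytes through GLUT4, the transporter that insulin brings to the surface, and GLUT1, which works without insulin. Slc2a4 (GLUT4, ENSMUSG00000018566, chromosome 11, 69942539 to 69948188) ran from 139 over a median of 255 to 339.6 CPM in AAV-GFP mice and from 167 over a median of 264 to 325 CPM in AAV-Notum mice. Each of the 6 latter lay within the AAV-GFP range, and the log2 fold change was 0.09 (standard error 0.23, 95% interval -0.41 to 0.60, edgeR adjusted p = 0.836). It moved with the fit, to 0.48 with the lymphoid score (edgeR, unadjusted p = 0.0246), 0.29 with the adipocyte score (unadjusted p = 0.00232), 0.33 without mice S_2011 and S_2014, and -0.0084 without mouse S_2013 and -0.020 without mouse S_2022. Slc2a1 (GLUT1, ENSMUSG00000028645, chromosome 4, 119108711 to 119137983) was the least abundant of the 10, with 208 to 477 reads per mouse. It ran from 16.0 over a median of 19.7 to 25.5 CPM in AAV-GFP mice and from 13.5 over a median of 22.0 to 24.4 CPM in AAV-Notum mice (log2 fold change 0.06, standard error 0.16, 95% interval -0.29 to 0.41, edgeR adjusted p = 0.859). The latter ran from 0.0016 to 0.15 without single mice and turned to -0.15 with the lymphoid score and -0.044 with the adipocyte score. These intervals correspond to folds of 0.752 to 1.51 for Slc2a4 and 0.815 to 1.33 for Slc2a1.

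Pde3b (ENSMUSG00000030671, chromosome 7, 114415281 to 114539251), through which insulin restrains lipolysis, ran from 505 over a median of 630.1 to 797 CPM in AAV-GFP mice and from 371 over a median of 416 to 752 CPM in AAV-Notum mice. There were 4 AAV-Notum mice under the lowest AAV-GFP mouse, but mice S_2041 and S_2042 had 587 and 752 CPM. The log2 fold change was -0.40 (standard error 0.20, 95% interval -0.84 to 0.04), with an adjusted p of 0.377 in edgeR and an exact permutation p of 0.0758. As for Insr, AAV-GFP mice S_2011, S_2012 and S_2014 had the 3 highest levels of the group, 727, 784 and 797 CPM, against 505 to 533 CPM in the other 3. Mouse S_2042, the highest of the AAV-Notum group for Insr, Irs1, Akt2, Slc2a4 and Pde3b, was also the library with the high muscle markers and the highest summed adipocyte markers. Without mouse S_2042 the log2 fold change of Pde3b was -0.57 (edgeR, unadjusted p = 0.00717), that of Akt2 -0.39 (unadjusted p = 0.0170) and that of Insr -0.59 (unadjusted p = 0.00388). With the lymphoid score as a covariate it was closer to 0, at -0.12 for Pde3b (edgeR, unadjusted p = 0.515) and -0.073 for Akt2 (unadjusted p = 0.613).

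**Figure D3:**
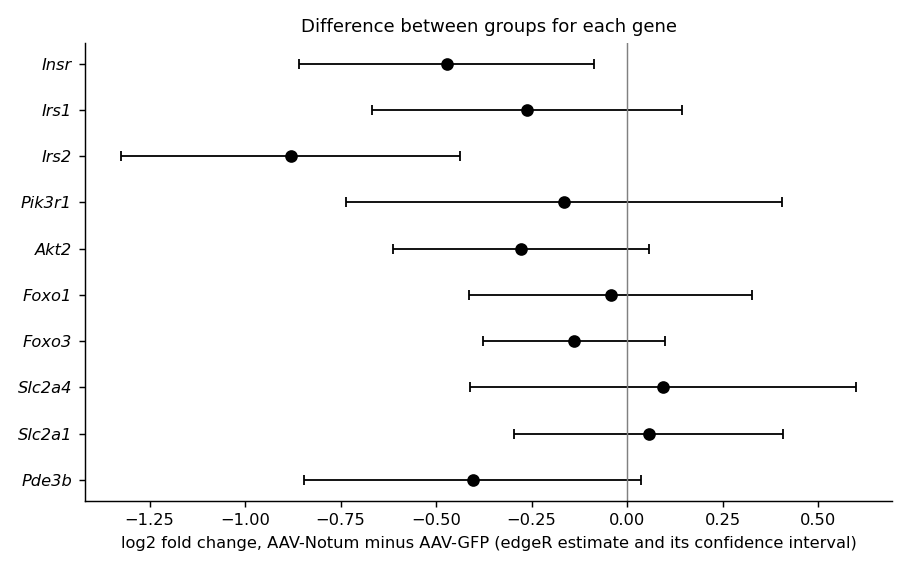
Log2 fold change of each gene (x axis, AAV-Notum minus AAV-GFP), with points the edgeR estimate and lines its 95% interval from 6 mice per group. The intervals of Insr and Irs2 lie wholly below 0, before adjustment over all genes, and the other 8 include 0.

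Levels of different genes were compared per kb of exon. In AAV-GFP mice the order was Pde3b with 70.9 ± 15.1 CPM per kb (SD, n = 6), Slc2a4 with 68.0 ± 22.4, Pik3r1 with 40.9 ± 16.2, Akt2 with 33.6 ± 5.79, Irs2 with 25.6 ± 7.87, Insr with 21.0 ± 4.48, Foxo1 with 18.5 ± 5.40, Irs1 with 16.1 ± 4.45, Foxo3 with 7.90 ± 0.662 and Slc2a1 with 5.68 ± 1.05. Only Irs1 and Foxo3 were neighbours in this order whose values did not overlap between mice. Insulin-responsive Slc2a4 was thus far above Slc2a1 in this fat depot, and the mean of Irs2 was above that of Irs1, with overlapping values. In AAV-Notum mice Slc2a4, with 72.6 ± 16.9 CPM per kb, stood before Pde3b with 53.5 ± 16.6. Irs2 took rank 7 in place of 5 there, with 13.9 ± 2.80 CPM per kb beside 13.4 ± 2.67 for Irs1.

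The level of many genes varied with the adipocyte marker score over the 12 mice. At an unadjusted permutation p of Pearson's r under 0.05 there were 8 of the 10 genes, 6 upward and 2 (Slc2a1 and Foxo3) downward, against 63.0% of all genes tested (31.8% upward and 31.2% downward), and after adjustment over all genes there were 7, against 57.9%. The relation is therefore not particular to the 10 genes, and their values are given as a description. Within groups of 6 mice, an unadjusted exact permutation p under 0.05 was reached in both groups by Slc2a4 and Pde3b, in AAV-GFP mice alone by Pik3r1, and in AAV-Notum mice alone by Insr, Irs1, Akt2, Foxo3 and Slc2a1. The adipocyte score ran from 10.4 to 11.6 in AAV-GFP mice and from 10.4 to 11.5 in AAV-Notum mice, and 0 of its 10 genes differed at an unadjusted p under 0.05, against 14.2% of all genes. This relation was examined after the data were seen, with 100000 permutations for each gene and adjustment over all 15585 genes. Slc2a4 had the highest r of the 10, with Pearson's r = 0.898 (permutation p = 4e-05, adjusted p = 9.75e-04) and Spearman's rho = 0.867 (permutation p = 5.2e-04). Its r was 0.978 within AAV-GFP mice and 0.952 within AAV-Notum mice, where Akt2 had a higher r of 0.976. Without mice S_2022 and S_2032, the 2 farthest from the median score, r of Slc2a4 was 0.847. Akt2 had r = 0.859 (permutation p = 7.1e-04, adjusted p = 0.00306, rho = 0.839 with permutation p = 0.00117), and 0.893 without those mice. Pde3b (r = 0.801), Pik3r1 (0.758), Irs1 (0.741) and Insr (0.739) had adjusted permutation p-values of 0.00906 to 0.0167, rho of 0.678 to 0.762 with permutation p-values of 0.00484 to 0.0183, and r of 0.747 to 0.833 without those mice. Slc2a1 went the other way, with r = -0.773 (permutation p = 0.00390, adjusted p = 0.0106, rho = -0.685 with permutation p = 0.0173) and -0.854 without those mice. Foxo3 had r = -0.606 (permutation p = 0.0329, adjusted p = 0.0542, rho = -0.580 with permutation p = 0.0520, -0.510 without those mice), and Foxo1 had r = -0.519 (permutation p = 0.0795, adjusted p = 0.118, rho = -0.636 with permutation p = 0.0302, -0.427 without those mice). Irs2 was the gene of the 10 with the weakest relation to the score (r = 0.26, permutation p = 0.408, rho = 0.364 with permutation p = 0.247, 0.356 without those mice), and its r was -0.0238 within AAV-GFP mice (exact permutation p = 0.953) and 0.532 within AAV-Notum mice (exact permutation p = 0.272). The lymphoid score moved against the adipocyte score. It was -0.435 in mouse S_2014 and 0.301 in mouse S_2011, whose adipocyte scores were 11.55 and 11.42, and 6.86 in mouse S_2022 and 7.20 in mouse S_2032, whose adipocyte scores were 10.44 and 10.45. The part of the lymphoid markers in these relations was not tested. The 12 points share the scaling to library size, in which every gene is measured as a share of its library.

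**Figure D4:**
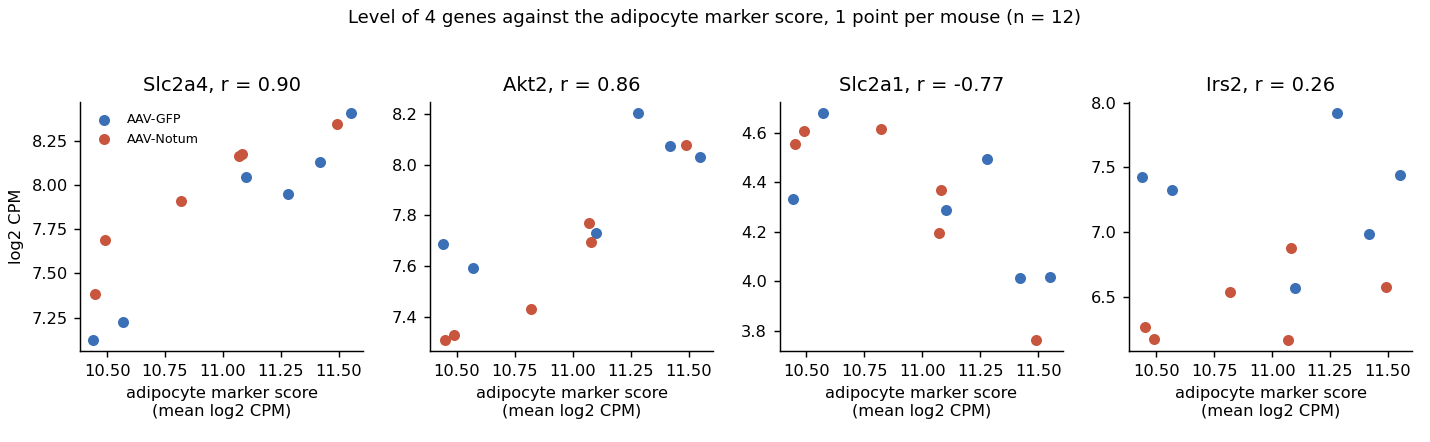
Log2 CPM of Slc2a4, Akt2, Slc2a1 and Irs2 (y axis) against the adipocyte marker score (x axis, mean log2 CPM of 10 markers), with 1 point per mouse, 12 mice, coloured by group. Slc2a4 and Akt2 are higher and Slc2a1 is lower in mice of higher score, and Irs2 shows no such order.

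With the adipocyte score as a covariate, 6 of the 10 genes had an unadjusted p under 0.05 in edgeR, against 25.4% of all genes in the same fit (11.3% lower and 14.1% higher). Irs2 was lower (log2 fold change -0.86, adjusted p = 0.0441, a threshold of 0.05 that 3.61% of all genes passed), Slc2a4 was higher by 0.29 (unadjusted p = 0.00232, adjusted p = 0.0558), and Insr (-0.38), Pde3b (-0.31), Foxo3 (-0.21) and Akt2 (-0.20) had adjusted p-values of 0.0705 to 0.146. With the lymphoid score instead, only Irs2 (-0.83, unadjusted p = 0.00343) and Slc2a4 (0.48, unadjusted p = 0.0246) were under 0.05 before adjustment, against 9.19% of all genes. With both scores as covariates there were 4 of the 10, against 11.7% of all genes, and with the skeletal muscle score 5, against 18.3%. The 4 with both scores were Irs2 (-0.89, unadjusted p = 0.00530), Slc2a4 (0.29, unadjusted p = 0.0108), Insr (-0.37, unadjusted p = 0.0215) and Akt2 (-0.23, unadjusted p = 0.0347), and Pde3b had -0.30 (unadjusted p = 0.0669).

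The other genes of the pathway were 106, in 9 groups by role, of which 100 were tested. At an unadjusted p under 0.05 in edgeR, 16 were lower in AAV-Notum mice (against 9.54% of all genes), 1 was higher (against 4.64%), and 0 passed the adjusted threshold. DESeq2 called 3 lower, against 2.32% of all genes, and 1 higher, against 0.531%. The median log2 fold change of the 100 was -0.054. Leaving out mouse S_2012 or mouse S_2034 reduced the 17 genes to 11, while without mouse S_2022 there were 27 and without mouse S_2042 there were 28. With the lymphoid score as a covariate there were 10 of 100 (against 9.19% of all genes in that fit), with the adipocyte score 39 (against 25.4%), and with both scores 19 (against 11.7%). The genes named below were taken, in each group, from the 3 with the smallest p and the most abundant.

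Among 9 receptor and adaptor genes tested, 2 were lower before adjustment, among them Gab1, a docking protein that recruits PI3K (log2 fold change -0.64, unadjusted p = 0.00740). Sh2b1, an adaptor that enhances receptor signaling, had 0.17 (unadjusted p = 0.124). Of the 7 PI3K subunit genes none had an unadjusted p under 0.05 in edgeR and DESeq2 called none. Pik3cd and Pik3cg, catalytic subunits found mainly in leukocytes, had 0.91 and 0.56, and Pik3cd ran from 8.70 to 215 CPM in AAV-GFP mice and from 64.0 to 242 CPM in AAV-Notum mice. Pik3c2a had -0.10. Of 16 genes of AKT, its activating kinase and the mTOR complexes, Rptor, the scaffold of mTOR complex 1 (-0.15, unadjusted p = 0.0353), and Pdpk1, which phosphorylates AKT (-0.17, unadjusted p = 0.0495), were lower before adjustment. Tsc2, a brake on mTOR, had -0.24 and the translation repressor Eif4ebp1 had -0.21, with p-values above 0.05.

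Of the 17 genes that restrain insulin signaling, 9 had a log2 fold change below 0 and 8 above 0, the highest being 0.88. The 4 with an unadjusted p under 0.05 were all lower. Ptprf, a receptor phosphatase, measured 29.2 ± 4.42 CPM in the AAV-GFP group and 21.1 ± 2.45 CPM in the AAV-Notum group (SD, n = 6 each), with 5 AAV-Notum mice under the lowest AAV-GFP mouse (log2 fold change -0.47, adjusted p = 0.140 in edgeR and 0.0233 in DESeq2). Trib3, a pseudokinase that binds AKT, was 10.4 ± 3.70 CPM and 5.52 ± 0.995 CPM (-0.91, adjusted p = 0.152 in edgeR and 0.0193 in DESeq2). Grb10, an adaptor that inhibits the receptor, was 81.1 ± 22.7 CPM and 52.5 ± 11.6 CPM, again with 5 AAV-Notum mice under the lowest AAV-GFP mouse (-0.63, adjusted p = 0.189 in edgeR and 0.0497 in DESeq2). The fourth with an unadjusted p under 0.05 was Grb14, a relative of Grb10 named after its values were seen, with 13.1 to 98.6 CPM in AAV-GFP mice and 14.1 to 29.7 CPM in AAV-Notum mice (-1.29, unadjusted p = 0.0119). The other 13 were at p-values above 0.05.

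Among 13 tested FOXO factors and known FOXO targets, Cited2, a transcriptional coregulator (-0.40, unadjusted p = 0.0181), and Pdk4, which restrains glucose oxidation (-0.55, unadjusted p = 0.0324), were lower before adjustment. Pck1, which provides glycerol for triglyceride synthesis in fat, was 6125 ± 1319.7 CPM in AAV-GFP mice and 4389.6 ± 1283 in AAV-Notum mice (-0.48, unadjusted p = 0.0618). Of 16 genes of GLUT4 vesicle traffic, Snap23, a SNARE of vesicle fusion (-0.24, unadjusted p = 0.00737), and Myo1c, a motor that moves GLUT4 vesicles (-0.42, unadjusted p = 0.0204), were lower before adjustment, with 6 of 6 AAV-Notum mice under the mean of the AAV-GFP group for each. Trip10 had -0.26 and Sort1, a sorting receptor of GLUT4 vesicles, had -0.32, with p-values above 0.05.

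Of 11 tested hexose transporters and hexokinases, Slc2a10 was lower before adjustment (-0.67, unadjusted p = 0.00690), at no more than 5.27 CPM in any mouse. Slc2a5, the fructose transporter GLUT5, was the gene of the list that DESeq2 called higher, with 0.878 to 6.97 CPM in AAV-GFP mice and 2.09 to 27.6 CPM in AAV-Notum mice (log2 fold change 2.05, adjusted p = 0.212 in edgeR and 0.0281 in DESeq2). Its groups overlapped, with 5 of 6 AAV-Notum mice over the mean of the AAV-GFP group of 3.18 CPM. Slc2a13 had -0.63 (unadjusted p = 0.0696), and Hk2, the first enzyme of glucose use in insulin-sensitive tissue, had -0.01. Beside Pde3b, 3 of 7 genes of cyclic AMP breakdown were lower before adjustment: Pde4d (-0.46, unadjusted p = 0.00366), Abhd15, a partner that stabilizes PDE3B (-0.40, unadjusted p = 0.0287), and Pde3a (-0.34, unadjusted p = 0.0319). Ywhab, a 14-3-3 protein, had -0.40 (unadjusted p = 0.0566). Of 5 transcription factor genes of the insulin response, none had an unadjusted p under 0.05 in edgeR and DESeq2 called none, with Nr1h3 at -0.28, Usf1 at 0.20 and Srebf1, the driver of lipogenic genes, at 0.19.

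Several of these values moved by more than 1.5 times beside the lymphoid markers, and not all of them did so once the adipocyte score was added. With the lymphoid score as a covariate (edgeR), the log2 fold change was -0.27 for Gab1 (unadjusted p = 0.0696), -0.53 for Trib3 (unadjusted p = 0.0271), -0.40 for Grb10 (unadjusted p = 0.0476), -0.57 for Grb14 (unadjusted p = 0.191) and -0.18 for Cited2 (unadjusted p = 0.199). It was -0.15 for Myo1c (unadjusted p = 0.272), -0.40 for Slc2a10 (unadjusted p = 0.0586), -0.24 for Pde4d (unadjusted p = 0.0364) and -0.16 for Abhd15 (unadjusted p = 0.253). Pdk4 had -0.53 (edgeR, unadjusted p = 0.0568) with the lymphoid score, and -0.80 (unadjusted p = 0.00633) with the adipocyte score added. Pde3a had -0.27 (unadjusted p = 0.118) and -0.36 (unadjusted p = 0.0333), respectively. With the lymphoid and adipocyte scores together, Gab1 had -0.38 (unadjusted p = 0.00767), Trib3 -0.63 (unadjusted p = 0.0121), Grb10 -0.58 (unadjusted p = 0.00183), Slc2a10 -0.52 (unadjusted p = 0.0118), Pde4d -0.24 (unadjusted p = 0.0497) and Abhd15 -0.32 (unadjusted p = 0.00422). In the same fit Grb14 had -0.57 (unadjusted p = 0.207), Cited2 -0.13 (unadjusted p = 0.344), Myo1c -0.18 (unadjusted p = 0.172) and Pdpk1 -0.12 (unadjusted p = 0.234). Without mice S_2011 and S_2014, it was -0.67 for Grb14, -0.25 for Cited2, -0.22 for Myo1c, -0.28 for Abhd15, -0.17 for Pdpk1 and -0.13 for Rptor, each with an unadjusted p above 0.05 in edgeR. Rptor had -0.14 with the lymphoid score (edgeR, unadjusted p = 0.0799) and -0.12 with both (unadjusted p = 0.131). Over all 28 alternatives, the unadjusted p was under 0.05 in 28 for Ptprf, Trib3, Grb10, Snap23, Pde4d and Slc2a5, in 19 to 27 for Gab1, Grb14, Cited2, Pdk4, Myo1c, Slc2a10, Abhd15 and Pde3a, in 11 for Rptor and in 7 for Pdpk1.

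Pik3cd moved the most of the genes named that kept their direction with the lymphoid score. Its log2 fold change was 0.044 with that score (edgeR, unadjusted p = 0.826), 0.25 with both scores (unadjusted p = 0.0712) and 0.39 without mice S_2011 and S_2014 (unadjusted p = 0.423). Of the other named genes at p-values above 0.05, Ywhab had -0.10 with the lymphoid score and -0.27 with both, Tsc2 -0.056 and -0.11, Sh2b1 0.029 and 0.12, Pck1 -0.26 and -0.51, Trip10 -0.15 and -0.31, and Nr1h3 -0.14 and -0.30. Usf1 had 0.074 and 0.18, Srebf1 0.39 and 0.24, and Pik3c2a -0.16 and -0.13.

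**Figure D5:**
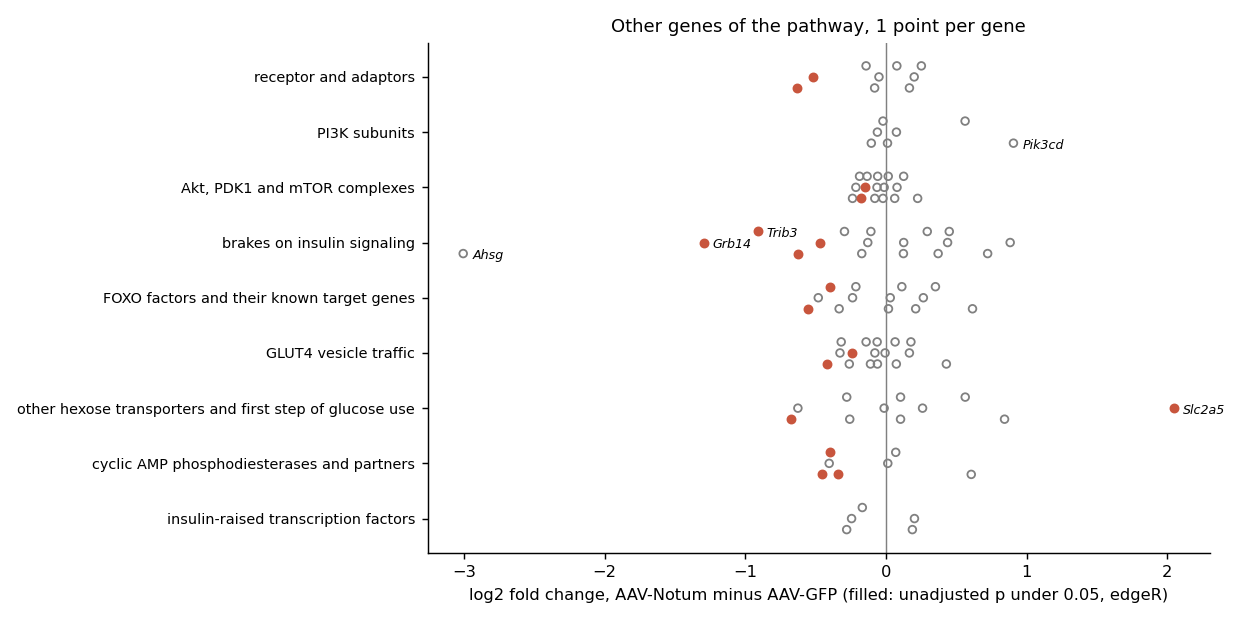
Log2 fold change (x axis, AAV-Notum minus AAV-GFP, edgeR, 6 mice per group) of the 100 tested genes of the pathway by role, 1 point per gene. Of the 17 filled points (unadjusted p under 0.05), 16 lie below 0 and 1, Slc2a5, above, and genes past 0.9 in either direction are labelled.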

How the data were processed

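RNA of iWAT from 12 mice was sequenced with TruSeq libraries. Per the labels, the authors mapped reads to mm10 with STAR 2.3.1 and used DESeq2. The deposited raw table holds whole-number counts per gene, without normalization. The deposited normalized table holds log2 values, the log2 of reads divided by a size factor, plus 1, and undoing this gave whole reads (within 0.05) for 100% of values. These equalled the raw counts in 17.6% of values over 15548 tested genes in both tables, so the tables do not come from a single counting run, and the raw table was the main one. The counting program, annotation and strand setting are not given in the sources used here. Separate mice are the replicates.

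Counts were analysed with edgeR 4.0.16 in R 4.3.3: filterByExpr (minimum count 10, minimum total 15), TMM, estimateDisp and the quasi-likelihood test, two-sided, 6 AAV-Notum against 6 AAV-GFP mice, with Benjamini-Hochberg adjustment over 15585 genes and a threshold of 0.05. CPM use TMM-scaled library sizes, and log2 CPM a prior count of 2. Standard errors were taken as the ratio of the log2 fold change to the root of its F statistic. Exact permutation tests ran over all 924 assignments of mice. Gene positions and exon lengths are from GENCODE vM21 (GRCm38, the assembly of mm10), in which 99.88% of gene IDs were found, and promoters from RefSeq on GRCm38.p6. A marker score is the mean log2 CPM of a list.

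The 10 genes, the pathway and marker lists, the rule for naming genes (all 10 genes, and in each pathway group the 3 of smallest p and the most abundant) and the tests were chosen with earlier results of these data known. Some genes under this rule are not reported here. The alternatives tried were covariates (a marker score or the RNA integrity number), DESeq2 1.42.0 with or without its independent filtering, limma-voom (limma 3.58.1), the normalized values of the authors and the reads recovered from them, RLE size factors, a robust fit, filters of 1 count in all or of 10 counts in each mouse, leaving out each mouse, and leaving out mice S_2011 and S_2014. The hepatocyte score, and the lymphoid and adipocyte scores together, were added after the data were seen. The fits were tested on simulated data. Plots were made in Python 3.11.15 (matplotlib 3.10.9).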

Additional observations from a re-analysis of the deposited data

Results flagged for a closer look

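In the ratio of Foxo1 to Foxo3 within a mouse, a single mouse stood apart from the rest of each group. AAV-GFP mouse S_2021 had a ratio of 3.83, against 2.14 to 2.72 in the other 5 AAV-GFP mice, a gap of 0.653 of the group's range. AAV-Notum mouse S_2042 had a ratio of 3.72, against 2.56 to 2.90 in the other 5 AAV-Notum mice, a gap of 0.712 of the range. Both gaps exceed Dixon's 95% critical value for 6 samples. They were taken on the ratios themselves and not on the log2 scale of the permutation tests, which shortens gaps at the upper end. The 10 genes and 3 ratios gave 26 groups of 6 values, in which chance gives about 1.3 such mice (1 in 20 groups), and 2 were found. In mouse S_2021 Foxo1 was the highest of all 12 mice at 245 CPM, and in mouse S_2042 Foxo3 was the lowest at 40.8 CPM.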

How the results depend on the processing

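No paired analysis was possible because the groups share no replicate numbers. Irs2 kept its direction and an unadjusted p under 0.05 in all 28 alternatives run, with log2 fold changes of -0.99 to -0.73, and Insr kept its direction in all 28 and an unadjusted p under 0.05 in 25. Of the 10 genes, the 2 with an unadjusted p under 0.05 became 6 with the adipocyte score, 5 with the skeletal muscle score, 4 with the lymphoid and adipocyte scores together, 1 without mice S_2011 and S_2014, and 1 to 4 when each mouse was left out (1 without S_2012, 4 without S_2042). The 0 with an adjusted p under 0.05 became 1 (Irs2) in DESeq2 with or without independent filtering and with the adipocyte score, and stayed 0 without any single mouse. For the other pathway genes, the 17 became 39 with the adipocyte score, 10 with the lymphoid score and 11 to 28 without each mouse (11 without S_2012 or S_2034, 27 without S_2022, 28 without S_2042), and the 0 became 4 in DESeq2, 2 in DESeq2 without independent filtering, 4 with the adipocyte score and 0 to 2 without each mouse (2 without S_2022). The Irs1 to Irs2 ratio kept an exact p under 0.05 in all 16 alternatives. The Slc2a4 to Slc2a1 difference ran from -0.11 to 0.26 without each mouse, below 0 without S_2013 (-0.11), S_2022 (-0.059) or S_2042 (-0.11), and that of Foxo1 to Foxo3 from 0.069 to 0.25 (0.25, exact p = 0.0303, without S_2021). Log2 fold changes turned direction with the lymphoid score for Irs1 (0.050), Pik3r1 (0.25), Slc2a1 (-0.15), Pik3cg (-0.22), Eif4ebp1 (0.11), Sort1 (0.093), Slc2a13 (0.070) and Hk2 (0.26), with the adipocyte score for Pik3r1 (0.082), Slc2a1 (-0.044) and Hk2 (0.10), with both scores for Pik3r1 (0.15), Slc2a1 (-0.066), Pik3cg (-0.040) and Slc2a13 (0.0060), and without mice S_2011 and S_2014 for Pik3r1 (0.033), Slc2a1 (-0.077) and Hk2 (0.11). They also turned for Foxo1 with the authors' normalized values (6.25e-04), for Hk2 with the RNA integrity number (0.040) and with at least 10 counts in every mouse (0.0016), and without single mice for Foxo1 (-0.11 to 0.12), Slc2a4 (-0.020 to 0.22) and Hk2 (-0.20 to 0.076). The cause was not tested. Of the pathway genes named, Slc2a5 (15 to 448 reads per mouse) and Slc2a10 (31 to 94) had the lowest read counts in a mouse.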
